A study of Homo sapiens with 2 samples.

Results

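The SLC25 genes encode the carriers that move metabolites across the inner mitochondrial membrane. Among the 11619 genes that both RNA sequencing files list, 36 have a symbol made of SLC25A and a number, and these 36 genes are the ones described here. They were joined between the files by Ensembl identifier and taken by symbol, with earlier results of these data known. The higher value of each listed gene exceeds 0.5 FPKM, so a gene low in both libraries may have no row. An antisense gene, SLC25A25-AS1, has a longer symbol and was left out. Of 48 SLC25A genes that were sorted by substrate, 12 have no row in the files and were not analysed here. SLC25A4 and SLC25A31, both carriers of adenine nucleotides, are among these 12.

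The study measured RNA in NB4, a human acute promyelocytic leukemia (APL) cell line with the PML/RARα fusion. The cells had received a lentivirus with an shRNA against the long non-coding RNA CRNDE (sh-CRNDE) or with an irrelevant, non-targeting shRNA (sh-Control), and RNA was taken on day 3. The sh-Control library is called the control below, and values of the sh-CRNDE library are given as after knockdown. Both groups are infected cells of the same line, no uninfected cells were sequenced, and the labels do not say which of the study's CRNDE shRNAs was used. There was 1 library per group. For this reason no difference below could be set against a spread between replicates, and none has a p-value. The effect of the shRNA and a difference between the individual libraries cannot be told apart. The comparison asks what follows in the transcriptome when CRNDE is lowered.

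All levels are FPKM, a read-fragment density corrected for transcript length and library size, as deposited by the authors. The change of a gene is log2(FPKM + 1) after knockdown less that in the control, and a gene was counted as higher or lower when the change was past 1.5-fold, which is 0.585 on this scale. The pseudocount of 1 understates the change of genes near 1 FPKM. The depth of the libraries is unknown. CRNDE itself was at 5.92 FPKM in the control and at 1.85 FPKM after knockdown, a change of -1.28. Of 8 promyelocyte markers, 7 are listed, with MPO highest at 1135 FPKM in the control and 738 FPKM after knockdown, while ELANE has no row. Their summed level was 1413 FPKM in the control and 820 FPKM after knockdown, and the part of this difference in the results below was not tested. Markers of other blood cells were low or had no row, with CD3D at 0.991 and 1.16 FPKM as the only 1 of 3 T-cell markers listed, 2 of 3 B-cell markers listed at up to 1.02 FPKM, and 0 of 3 erythroid markers. The mitochondrial rRNA MT-RNR2 is listed at 0 in the control and at 27614 FPKM after knockdown, where it made up 16.2% of the FPKM sum. The median change over all genes was nevertheless -0.01.

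Most SLC25 proteins sit in the inner mitochondrial membrane and exchange one small molecule for another, so that fuel, nucleotides, amino acids, cofactors and iron can pass a membrane that is otherwise tight. The adenine nucleotide carriers bring ADP in and ATP out and are usually the most abundant members, and the phosphate carrier supplies the other substrate of ATP synthase. Other members feed the citric acid cycle, the malate-aspartate shuttle, the making of heme and iron-sulfur clusters, and the mitochondrial pools of folate, coenzyme A, NAD and S-adenosylmethionine. In blood cells they are known above all for their part in energy supply and heme synthesis.

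Few of the SLC25 genes differed between the libraries by more than 1.5-fold. SLC25A38, SLC25A16 and SLC25A22 were higher after knockdown, SLC25A6 and SLC25A25 were lower, and the other 31 genes were not past the threshold. SLC25A6, one of the adenine nucleotide carriers, differed most on this scale, while with a pseudocount of 0.01 the low SLC25A42 was at -1.40 and SLC25A6 at -1.35. The 5 genes are 13.9% of the 36, beside 17.2% of all listed genes. The 3 higher genes stand beside 8.38% of all genes that were higher, and the 2 lower genes beside 8.83% that were lower, so that each share was close to or below that of the genes at large. On the log2(FPKM + 1) scale SLC25A6 was the only 1 of the 36 past 2-fold (2.78%, beside 6.66% of all genes). With a pseudocount of 0.1, the low genes SLC25A42 (-1.199), SLC25A35 (-1.01) and SLC25A16 (1.10) were past 2-fold as well. With the pseudocount of 1, the changes ran from -1.33 to 0.92. Their median was -0.08, and their quartiles were -0.35 and 0.17, beside a median of -0.01 and quartiles of -0.26 and 0.23 for all genes. Of the 36 genes, 15 had a change above 0 and 21 below 0. None was listed at 0 in either library.

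**Figure D1:**
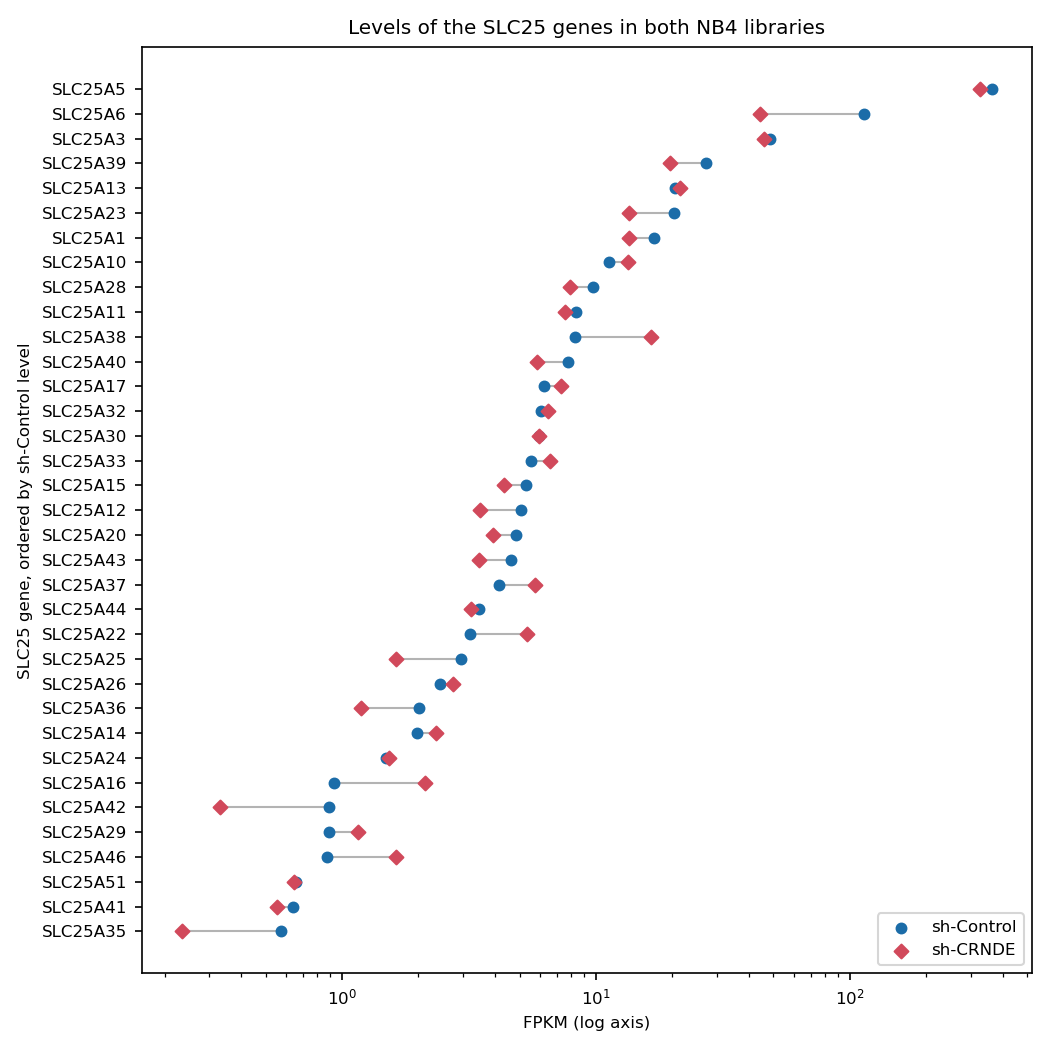
Level of 35 of the 36 SLC25 genes, in FPKM on a log axis, ordered by the sh-Control level; circles are the sh-Control library and diamonds the sh-CRNDE library, with 1 library each and no error bars. SLC25A5 stands far to the right in both libraries, and SLC25A6 shows a long shift to the left, from 113 to 44.5 FPKM.

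The levels spread widely. The highest was SLC25A5, at 361 FPKM in the control and 327 FPKM after knockdown, which ranked 25th and 29th among all genes of its library. The lowest was SLC25A35, at 0.574 FPKM in the control and 0.234 FPKM after knockdown. The median level was 5.19 FPKM in the control and 5.53 FPKM after knockdown, above the 3.95 and 3.89 FPKM of all listed genes. Of the 36 genes, 29 had at least 1 FPKM in both libraries, and 9 had a mean of at least 10 FPKM. The 10 genes with the highest mean made up 86.8% of the summed level in the control and 84.9% after knockdown. Because FPKM is given per length, levels of different carriers can be added.

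The summed level of the 36 genes was 734 FPKM in the control and 616 FPKM after knockdown, a log2 ratio of -0.25. Most of the difference lay in SLC25A6. Without SLC25A5 and SLC25A6 the sums were 260.0 FPKM in the control and 245 FPKM after knockdown, a log2 ratio of -0.09. SLC25A5 was first in both libraries, and the order below it differed. SLC25A6 was second in the control, well above SLC25A3, and after knockdown it was at 44.5 FPKM beside 45.9 FPKM for SLC25A3.

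The adenine nucleotide carriers came apart. SLC25A6, the gene of the carrier isoform ANT3, fell from 113 FPKM in the control to 44.5 FPKM after knockdown, a change of -1.33. SLC25A5, the gene of ANT2, was at 361 and 327 FPKM, a change of -0.14. The level of SLC25A5 was thus 3.19 times that of SLC25A6 in the control and 7.35 times after knockdown. SLC25A6 supplied 23.9% of their summed level in the control and 12.0% after knockdown, and the sum itself was 474 FPKM in the control and 371 FPKM after knockdown. The change of SLC25A6 was above that of only 1.93% of the listed genes, and the change of SLC25A5 above that of 35.2%. Under the 6 other pseudocounts and scalings tried, the change of SLC25A6 stayed between -1.38 and -1.11.

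SLC25A6 (ENSG00000169100, chrX:1386152-1392113, minus strand, GRCh38, 4 exons) lies in the part of the X chromosome that the Y chromosome repeats. In a reference that holds both copies, a read cannot be assigned to one or the other. Whether NB4 cells hold a Y copy was not examined here. In the RefSeq promoter entries (GRCh38.p14), the 300 bases around its start, chrX:1392064-1392363, show 0 differences between X and Y. The last 60 bases before the start are printed here because they belong to the member with the largest change on this scale.

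SLC25A6 upstream: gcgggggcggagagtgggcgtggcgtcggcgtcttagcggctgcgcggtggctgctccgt

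The other genes of that shared region, looked at after the value of SLC25A6 had been seen, were read beside it. Of 13 such genes in the files, 10 had a change below 0, and without SLC25A6 9 of 12 did, beside 5906 of all 11619 genes. Of the 13, 0 rose past 1.5-fold, beside 8.38% of all genes. Without SLC25A6, whose value prompted the look, 2 of 12 fell past it (16.7%). With SLC25A6, 3 of 13 fell past it (23.1%), beside 8.83% of all genes that were lower. Besides SLC25A6, these were P2RY8, the gene of a receptor on white blood cells, which was at 25.4 FPKM in the control and 0.0377 FPKM after knockdown, and CD99, the gene of a surface glycoprotein, at 10.2 and 5.38 FPKM. The nearest listed neighbours of SLC25A6 were not past the threshold, with IL3RA at -0.05, LINC00106 at 0.32 and ASMTL at -0.36. IL3RA, at 0.728 FPKM in the control and 0.671 FPKM after knockdown, and LINC00106, at 0.503 and 0.872 FPKM, were low. At such levels the pseudocount of 1 understates a change. The median change of the 12 genes without SLC25A6 was -0.22. GENCODE names 6 pseudogenes of SLC25A6 and 9 of SLC25A5. Of all stretches of 50 bases in the main transcript, 1.36% of those of SLC25A6 and 4.45% of those of SLC25A5 also occur in a transcript of another gene, so reads in these stretches could be assigned elsewhere.

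The phosphate carrier differed little. SLC25A3, which brings phosphate to ATP synthase and also carries copper, was at 48.3 FPKM in the control and 45.9 FPKM after knockdown, a change of -0.07. The genes of the respiratory chain and ATP synthase had a median change of 0.01 over 88 listed genes. Of these, 16 were past 1.5-fold (18.2%, beside 17.2% of all genes), with 7 higher and 9 lower.

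**Figure D2:**
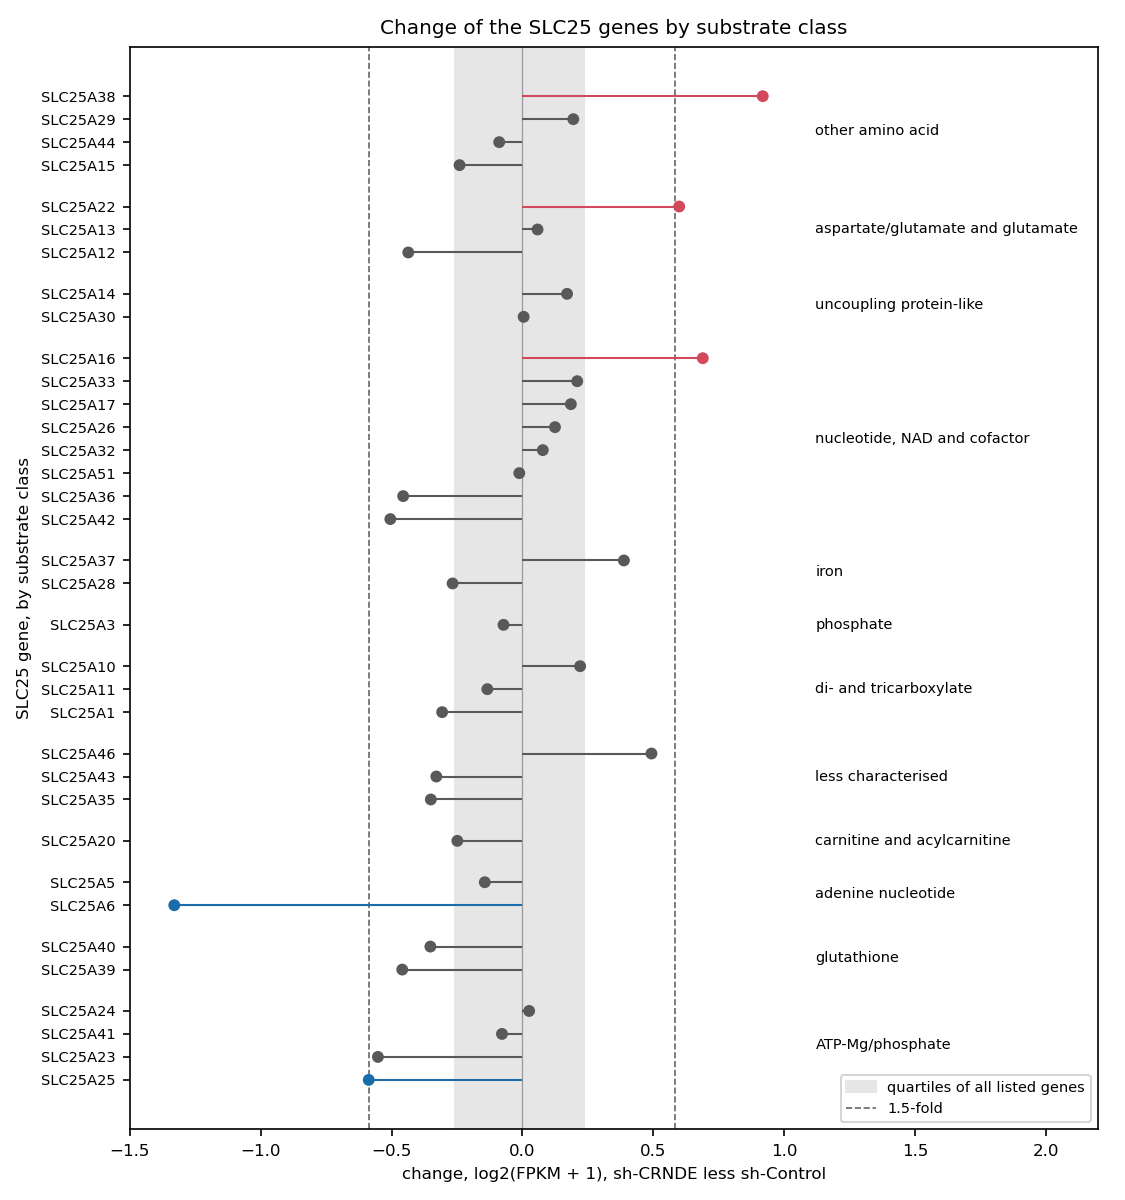
Change of 35 of the 36 SLC25 genes on the log2(FPKM + 1) scale, sh-CRNDE less sh-Control, with genes grouped by substrate class; the dashed lines mark 1.5-fold, the grey band spans the quartiles of all listed genes, from -0.26 to 0.23, and there is 1 library per group. The 5 coloured genes are past 1.5-fold, with SLC25A6 at -1.33 and SLC25A38 at 0.92 as the extremes.

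The ATP-Mg/phosphate carriers, which adjust the adenine nucleotide content of the matrix and are mostly set by calcium, had changes below 0 in 3 of 4 genes. SLC25A25 fell from 2.95 FPKM in the control to 1.63 FPKM after knockdown, a change of -0.587, just past the threshold of 0.585 in size. SLC25A23 was just outside it, at 20.3 FPKM in the control and 13.5 FPKM after knockdown, a change of -0.55. The 2 remaining genes were low, with SLC25A24 at 1.49 and 1.54 FPKM and SLC25A41 at 0.640 and 0.553 FPKM. The summed level of the class was 25.4 FPKM in the control and 17.2 FPKM after knockdown, and most of it came from SLC25A23. The call of SLC25A25 was lost after centring on the median (-0.58), after quantile normalization (-0.56) and after the GC subtraction (-0.42), in which each gene is compared with the median of genes whose transcripts have a like GC content. After that subtraction SLC25A41 was at 0.10 and SLC25A24 at -0.14. The exons of SLC25A25 overlap those of NAIF1, at 2.75 FPKM in the control and 2.18 FPKM after knockdown, and those of SLC25A25-AS1, at 0.888 and 0.801 FPKM. The library kit does not mark strand, so reads in the overlap cannot be told apart. SLC25A23 and SLC25A41 are neighbours on chromosome 19 with 2299 bases between them.

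The carriers of amino acids other than aspartate and glutamate held SLC25A38, the gene with the highest change on the log2(FPKM + 1) scale. With a pseudocount of 0.1 SLC25A16, described below, was above it, at 1.10 against 0.99, and likewise with 0.01 and on TPM. SLC25A38, which imports glycine for the first step of heme synthesis, rose from 8.27 FPKM in the control to 16.5 FPKM after knockdown, a change of 0.92. It lies at chr3:39383370-39397351 on the plus strand (ENSG00000144659, 7 exons), and 96.1% of all genes had a lower change. Under the 6 other pseudocounts and scalings its change stayed between 0.92 and 0.998. SLC25A38P1 is a pseudogene, and 4.29% of the stretches of 50 bases are shared with it. The other carriers of this class had smaller changes in both directions. SLC25A15, the ornithine carrier, was at 5.30 FPKM in the control and 4.34 FPKM after knockdown (-0.24), SLC25A44, a carrier of branched-chain amino acids, at 3.47 and 3.21 FPKM (-0.09), and SLC25A29, a carrier of basic amino acids, at 0.885 and 1.16 FPKM (0.19). The summed level of the class was 17.9 FPKM in the control and 25.2 FPKM after knockdown, and SLC25A38 was the main source of the difference.

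The iron carriers pointed in opposite directions without passing the threshold. SLC25A37, or mitoferrin-1, the main importer of iron in cells that make much heme, was at 4.14 FPKM in the control and 5.73 FPKM after knockdown, a change of 0.39. SLC25A28, or mitoferrin-2, its widely expressed relative, was at 9.71 and 7.90 FPKM, a change of -0.27. Their summed level was 13.9 FPKM in the control and 13.6 FPKM after knockdown. The level of SLC25A37 was 0.427 times that of SLC25A28 in the control and 0.725 times after knockdown. Both glutathione carriers, which bring glutathione into the matrix, had values below 0 that were not past the threshold. SLC25A39 was at 27.2 FPKM in the control and 19.5 FPKM after knockdown, a change of -0.46, and SLC25A40 at 7.75 and 5.86 FPKM, a change of -0.35.

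Among the carriers of aspartate and glutamate, the glutamate carrier was higher. SLC25A22, which moves glutamate with a proton, rose from 3.18 FPKM in the control to 5.33 FPKM after knockdown, a change of 0.60. It lies at chr11:790475-798281 on the minus strand (ENSG00000177542, 10 exons), and its change stayed past the threshold under all 6 other pseudocounts and scalings, between 0.60 and 0.86. The aspartate-glutamate exchangers of the malate-aspartate shuttle were not past the threshold. SLC25A13 (citrin) was at 20.5 FPKM in the control and 21.4 FPKM after knockdown, and SLC25A12 (aralar) at 5.08 and 3.49 FPKM, a change of -0.44. The level of SLC25A13 was 4.04 times that of SLC25A12 in the control and 6.12 times after knockdown.

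The di- and tricarboxylate carriers and the acylcarnitine carrier showed no change past 1.5-fold. SLC25A1, which exports citrate for the making of fatty acids, was at 16.9 FPKM in the control and 13.5 FPKM after knockdown, a change of -0.31. SLC25A10, the dicarboxylate carrier, was at 11.3 and 13.3 FPKM (0.22), and SLC25A11, the oxoglutarate carrier of the malate-aspartate shuttle, at 8.36 and 7.53 FPKM (-0.13). SLC25A10 shares 62.0% of its stretches of 50 bases with an overlapping gene, ENSG00000262660, which is listed at 0.768 FPKM in the control and at 0 after knockdown. SLC25A20, the carnitine-acylcarnitine carrier of fatty acid oxidation, was at 4.86 and 3.93 FPKM (-0.25).

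The carriers of nucleotides, NAD and cofactors were spread around 0, with 1 of 9 past the threshold. SLC25A16, a carrier tied to coenzyme A, rose from 0.933 FPKM in the control to 2.12 FPKM after knockdown, a change of 0.69. Its level is low, it drops out when at least 1 FPKM is asked for in both libraries, and its change was 0.56 and no longer past the threshold after the GC subtraction. The other carrier tied to coenzyme A, SLC25A42, was at 0.888 FPKM in the control and 0.330 FPKM after knockdown, a change of -0.50. SLC25A36 and SLC25A33, which carry pyrimidine nucleotides, were at -0.46 and 0.21. SLC25A32, which serves folate and flavin, was at 6.08 and 6.47 FPKM (0.08), but it shares 87.9% of its stretches of 50 bases with other transcripts, most of all with an overlapping gene, ENSG00000285982. SLC25A26, the carrier of S-adenosylmethionine, had a change of 0.12, and SLC25A17, which sits in peroxisomes, of 0.18. SLC25A51, the NAD carrier, was at 0.660 and 0.646 FPKM and shares 41.6% of its stretches of 50 bases, mainly with SLC25A52 and SLC25A51 pseudogenes. The summed level of the class was 35.4 FPKM in the control and 35.1 FPKM after knockdown.

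The uncoupling protein-like genes SLC25A14 (0.17) and SLC25A30 (0.00) and the less characterised members SLC25A43 (-0.33), SLC25A35 (-0.35) and SLC25A46 (0.49) were not past the threshold. SLC25A46, an outer membrane member that takes part in mitochondrial shape, was at 0.872 FPKM in the control and 1.64 FPKM after knockdown. With a pseudocount of 0.1, SLC25A46 (0.84), SLC25A35 (-1.01), SLC25A36 (-0.71) and SLC25A42 (-1.199) were past it as well. All 4 had a mean level below 2 FPKM. SLC25A23, at a mean of 16.9 FPKM, was past the threshold with a pseudocount of 0.01 (-0.586) and on TPM (-0.593).

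**Figure D3:**
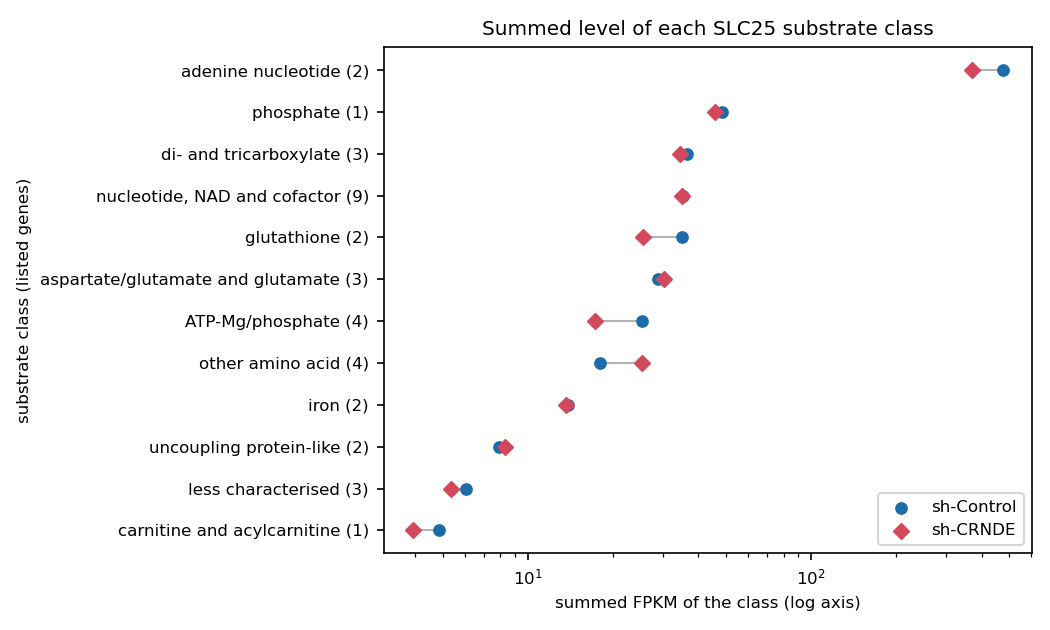
Summed FPKM of the listed genes of each SLC25 substrate class on a log axis, with the number of genes in brackets; circles are the sh-Control library and diamonds the sh-CRNDE library, 1 library each. The adenine nucleotide carriers, at 474 and 371 FPKM, hold most of the family's sum, and the other amino acid carriers shift to the right, from 17.9 to 25.2 FPKM.

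By share of the family's sum, the adenine nucleotide carriers made up 64.6% in the control and 60.3% after knockdown, and the phosphate carrier 6.57% and 7.45%. No other class reached 6%. The log2 ratio of the sums was lowest for the ATP-Mg/phosphate carriers, at -0.56, followed by the glutathione carriers at -0.46 and the adenine nucleotide carriers at -0.35, and was highest for the other amino acid carriers, at 0.49. Among solute carrier genes outside the SLC25 family, 26 of 128 were past 1.5-fold (20.3%, beside 17.2% of all genes), with a median change of -0.11. Of the 128, 9 were higher and 17 lower, beside 8.38% and 8.83% of all genes.

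The study also dealt with microRNAs of the miR-181 family, which pair through bases 2 to 8, the seed, with sites in the 3' untranslated regions of their targets. The mature sequences, from RefSeq, are shown with the seed in capitals because the same seed was used to search the SLC25 genes.

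miR-181a-5p: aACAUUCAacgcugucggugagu
miR-181b-5p: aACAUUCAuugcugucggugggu
miR-181c-5p: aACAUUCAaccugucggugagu
miR-181d-5p: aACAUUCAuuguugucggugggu

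All of them share 1 seed, and its match is TGAATGT. In the longest annotated 3' untranslated region, 6 of the 36 SLC25 genes hold a match (16.7%), beside 22.4% of the 9910 listed genes with such a region. The members with a match were SLC25A38 (0.92), SLC25A37 (0.39), SLC25A32 (0.08), SLC25A24 (0.03), SLC25A36 (-0.46) and SLC25A25 (-0.59), so that they include the highest change on this scale as well as a gene past the threshold in the other direction. Their median change was 0.05, beside -0.11 for the members without a match. Over all listed genes the medians were 0.05 with a match and -0.03 without. SLC25A6 holds no match. Windows of 23 bases that end with the match, in capitals, are printed for 4 of these genes, from GENCODE transcripts on GRCh38.

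SLC25A38, chr3:39397074-39397096, plus strand: gtggctttctagcctcTGAATGT
SLC25A25, chr9:128107503-128107525, plus strand: cagccatctcattctgTGAATGT
SLC25A25, chr9:128108908-128108930, plus strand: ttatttcactcttttcTGAATGT
SLC25A36, chr3:140978432-140978454, plus strand: taaacattcattgtgtTGAATGT
SLC25A24, chr1:108134966-108134988, minus strand: tttaaattgtaaggtaTGAATGT
SLC25A24, chr1:108136247-108136269, minus strand: cttgttttatatatttTGAATGT

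SLC25A25, SLC25A24 and SLC25A37 hold a pair of matches each, and their changes were -0.59, 0.03 and 0.39. A match of these letters is a description and does not show binding.

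RefSeq promoter entries, from 250 bases before to 50 after a start site, were found for 29 of the 36 genes. They were searched on both strands for CACGTG, the E-box that MYC and related factors can bind, for CCGGAAGT, an ETS factor motif, and for GCATGCGC, a part of the NRF1 motif. CACGTG was in the promoters of 8 of the 29 SLC25 genes (27.6%), beside 13.3% of 7938 listed genes with an entry and 7.26% of all 35116 entries. CCGGAAGT was in 4 of 29 (13.8%), beside 11.2% of listed genes and 4.14% of all entries. GCATGCGC was in 0 of 29, beside 7.08% of listed genes and 3.05% of all entries, which says only that these letters are not in these windows. The windows with CACGTG are shown because they include both of the higher members that have an entry.

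SLC25A38, chr3:39383316-39383341: agaacaccctCACGTGacaagcgtcc
SLC25A22, chr11:795420-795445: ggctggggtgCACGTGagccccgagc
SLC25A46, chr5:110738950-110738975: aggctataatCACGTGctccgaagac
SLC25A33, chr1:9539429-9539454: cggcccccgcCACGTGacggccgcgc
SLC25A26, chr3:66220941-66220966: tctcgcgttgCACGTGcagttgttgt
SLC25A26, chr3:66220967-66220992: ggttctacgtCACGTGgtcccggaag
SLC25A13, chr7:96322237-96322262: gcagcggggtCACGTGtccctgtcca
SLC25A51, chr9:37904171-37904196: gtgtctccctCACGTGaccccaacag
SLC25A36, chr3:140941683-140941708: ccgtagggatCACGTGaaagaacact

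The capitals mark the E-box, and each line is read on the strand of its gene. The E-box of SLC25A38 begins 44 bases before its start site. That of SLC25A22 lies at 1 of its 4 annotated start sites. Of the 8 genes, 6 had a change above 0 (5 after the GC subtraction, where SLC25A13 was at -0.02), and SLC25A38 and SLC25A22 were past the threshold. The median change was 0.17 for these 8 genes and -0.25 for the 21 genes with an entry and no E-box. Over all listed genes the medians were -0.02 with an E-box and -0.01 without, and 7.76% and 7.06% were higher past 1.5-fold. The ETS motif gave a like split among the SLC25 genes, with medians of 0.15 with it and -0.24 without. All 4 genes with CCGGAAGT had a change above 0, and 0 were past 1.5-fold. SLC25A26 and SLC25A46 hold both motifs. The searches were chosen after values were seen. The letters do not show that a factor was bound. SLC25A16, the other higher gene, has no entry.

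The enzymes and pores that work beside the carriers moved in both directions. Of 47 genes in 9 lists, 43 have a row, and 10 of these were past 1.5-fold (23.3%, beside 17.2% of all genes), with 5 higher and 5 lower. With a pseudocount of 0.1 it was 12 of the 43, beside 28.4% of all genes, so that the share was then no longer above that of all genes. Their median change was -0.15. The lists were drawn up by function and not by change, with earlier results of these data known.

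Of 3 listed family members that carry other names, 1 fell past 1.5-fold (33.3%, beside 8.83% of all genes) and 0 rose past it. MTCH1, an outer membrane relative of the SLC25 carriers that inserts proteins, fell from 22.9 FPKM in the control to 11.9 FPKM after knockdown, a change of -0.89. MTCH2 was at 41.9 and 31.8 FPKM (-0.39), and UCP2, an uncoupling protein, had a change of -0.22. Of the pores and the pyruvate carrier, 0 of 5 genes passed, and VDAC1, VDAC2 and VDAC3 lay between -0.28 and -0.12.

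Around citrate and glutamate, single enzymes stood out. CS, citrate synthase, which makes the substrate of SLC25A1, fell from 51.1 to 22.96 FPKM, a change of -1.12, while ACLY, which splits the exported citrate, was at -0.05. GLUD1, glutamate dehydrogenase, which uses glutamate in the matrix, rose from 35.2 to 73.6 FPKM, a change of 1.04, beside the rise of SLC25A22. It belongs to a list of enzymes of glutamine, proline and ornithine, of which 5 have a row. In that list 1 rose and 1 fell past 1.5-fold (40%, beside 17.2% of all genes), and the median change was -0.42. The 4 enzymes of the malate-aspartate shuttle lay between -0.15 and 0.24.

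In the use of iron, 2 of 7 genes rose past 1.5-fold (28.6%, beside 8.38% of all genes) and 0 fell past it. The median change of this list was nevertheless -0.11. ABCB10, which stabilizes mitoferrin-1, rose from 26.4 FPKM in the control to 42.3 FPKM after knockdown, a change of 0.66. ALAS1, the enzyme that joins the glycine brought by SLC25A38 to succinyl-CoA, was at 21.8 and 17.9 FPKM (-0.27), and FECH, which puts iron into heme, at 3.15 and 2.84 FPKM (-0.11).

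Of the one-carbon and thiamine enzymes, 1 of 5 passed (20%, beside 17.2% of all genes). MTHFD2, which works on the folate that SLC25A32 brings in, fell from 46.5 FPKM in the control to 24.3 FPKM after knockdown, a change of -0.91, and SHMT2 was at -0.38. In coenzyme A and glutathione synthesis, 3 of 9 genes passed (33.3%, beside 17.2% of all genes). PPCS rose from 2.81 to 7.78 FPKM (1.203) and PANK1 fell from 3.89 to 2.16 FPKM (-0.63), and both are enzymes of coenzyme A synthesis. GCLM, the regulatory subunit of the first enzyme of glutathione synthesis, rose from 3.22 to 7.42 FPKM (0.99), while its catalytic partner GCLC was at 0.07.

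The 36 genes lie on 16 chromosomes, 4 of them on X. All 36 have more than 1 exon, from 3 to 18, so that none belongs to the genes of a single exon. The GC content of the main transcript ran from 34.3% in SLC25A40 to 65.3% in SLC25A10, with a median of 48.6% beside 48.3% for all listed genes. SLC25A5 and SLC25A43 are neighbours on X with 13943 bases between them, with changes of -0.14 and -0.33. The exons of 18 of the 36 genes overlap those of another annotated gene, and those of 7 overlap a gene that the files list. In 21 genes no stretch of 50 bases recurs in a transcript of another gene. It recurs in over 10% of the stretches in SLC25A32, SLC25A10, SLC25A51 and SLC25A33, so that the levels of these 4 genes rest most on reads that could belong elsewhere.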

How the data were processed

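RNA of NB4 cells was sequenced by the authors with the TruSeq RNA v2 kit on an Illumina MiSeq, 1 library each for sh-CRNDE and sh-Control. The submitters' processing notes name fastp 0.20.0, HISAT2 2.0.4, StringTie 1.2.3 and GRCh38. The annotation release is not given in the sources used here. The authors deposited FPKM per gene, and the higher value of each listed gene exceeds 0.5 FPKM. Of the values between 0 and 1 FPKM, 2173 of 2174 in sh-CRNDE and 2107 of 2108 in sh-Control are distinct, so that no steps of whole reads appear, depth is unknown and no counting interval can be given.

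All genes were kept, and log2(FPKM + 1) was compared between the libraries with a threshold of 1.5-fold. No test was run with 1 library per group. GENCODE release 44 (GRCh38) gave places, exons, GC content and transcripts for 11508 of the 11619 identifiers. It was matched by Ensembl identifier, and its coordinates may differ from those of the annotation the authors used. Substrate classes and partner lists were written from general knowledge. The members and lists were chosen with earlier results of these data known. The values of 4 single genes are not reported here, and these genes are left out of the plots but kept in counts and sums. Any other member could be named, with both values for those past 1.5-fold, the adenine nucleotide and phosphate carriers, the 10 most abundant, and others by class. Partner genes past 1.5-fold are named, and other genes, the X and Y comparison and the motif and seed searches were chosen after values were seen. The protein sequences planned for the extreme members are not used here. Python 3.11.15 with numpy 2.4.6, pandas 2.3.3 and matplotlib 3.10.9 was used.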

Additional observations from a re-analysis of the deposited data

How the results depend on the processing

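The count of members past 1.5-fold was 9 with a pseudocount of 0.1, 10 with 0.01 and 10 on TPM without mitochondrial and small RNA genes, beside 28.4%, 30.0% and 27.3% of all genes, since these settings by construction shrink the genes near 1 FPKM less. Of these, 5, 6 and 6 were lower, against 2 in the report, beside 14.8%, 15.7% and 14.5% of all genes that were lower, so that the lower share of members was near that of all genes in each of these settings and slightly above it in the last 2. After centring on the median and after quantile normalization, 1 member was lower. With a 2-fold threshold and the pseudocount of 1, 1 member was past it, 0 higher and 1 lower, beside 6.66%, 3.43% and 3.23% of all genes. No member past the threshold reversed its direction under the alternatives tried for single genes. Of 216 values of single members under other pseudocounts and scalings, 197 kept their side of the threshold, 15 from 5 genes moved past it and 4 from SLC25A25 and SLC25A16 fell below it. The median change of members (-0.14 to -0.08) and the log2 ratio of summed levels (-0.27 to -0.24) stayed close to the values reported. The change of CRNDE, reported as -1.28, ran from -1.68 to -1.27. It was larger in size with a pseudocount of 0.1 (-1.63), with 0.01 (-1.68) and on TPM (-1.62). The count of partner genes past the threshold was 10 to 12, with 12 of 43 at both lower pseudocounts and on TPM, where the share of all genes was also higher, so that the excess over all genes was small or lost there. The alternatives for CRNDE, the partner genes and the sums were added after the data were seen. No paired analysis was possible because there was 1 library per group, and for the same reason no library could be left out. What the low genes can show is limited by the unknown depth.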
